A study of Rattus norvegicus with 24 samples.

Results

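The genes described here are 10 genes that mark macrophages of the lung or set their identity: Marco, Msr1, Mrc1, Cd163, Siglec1, Cd68, Adgre1, Csf1r, Csf2ra and Pparg. They were chosen by name, and a probe was taken as a member when its transcript accession mapped to one of these symbols. All 10 were on the array, out of 15443 gene symbols there, and 9 passed the filter on dim probes, out of 21253 genes or unnamed probes tested. Their RNA was measured in whole lung of 24 Fischer-344 rats, which were 7 to 8 weeks old at the start, on one-colour Agilent arrays. The control group inhaled filtered clean air, and the 600, 1000 and 1500 ppm groups inhaled hexanal, a volatile aliphatic aldehyde, for 4 hours a day on 5 days a week. Each group held 6 rats, 3 males and 3 females. The exposure lasted 5 weeks by the labels. The protocol in the labels writes the doses in mg per cubic meter and the sample titles in ppm, and ppm is used here. The paper gives a shorter exposure.

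Lung macrophages comprise alveolar macrophages, which lie in the air spaces and clear inhaled particles and surfactant, and interstitial macrophages of the tissue around airways and vessels. Alveolar macrophages take up ligands through scavenger receptors such as MARCO and MSR1, and depend on GM-CSF, whose receptor contains CSF2RA and whose signal acts through the nuclear receptor PPARG. CSF1R, the receptor of M-CSF and IL-34, supports macrophages in most tissues, and CD163 and SIGLEC1 are carried by resident macrophages of several organs.

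A level below is the log2 processed signal of a probe minus the 75th percentile of its own array, so that 0 is the signal of the probe at that percentile, and a change is the mean level at a dose minus the mean level in the control group. Levels of different probes are not set against each other. The 75th percentile of the processed signal lay between 1700.8 and 3132.71 on the 24 arrays, 70.7% to 81.7% of probes were well above background, and no probe was saturated. The arrays lay on 6 slides of 4, every slide held rats of 1 sex, and no slide held control rats together with rats of the 1000 or 1500 ppm group. In whole lung, a change in the number of macrophages, in the RNA of each macrophage or in RNA from other cells cannot be told apart. Each sample was read as 1 rat, by the number in its title, and the spread between rats includes that of the arrays. The genes for surfactant proteins C and B, which define type II cells of the alveolus, had mean levels of 7.77 and 7.19 over the 4 groups.

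The promoters of Mrc1 and Cd68 are shown because this pair had the highest Pearson correlation among these genes after group means were subtracted, as given below. Other pairs were higher by Spearman's rho, after normexp background correction and after the means of each sex were also subtracted. The 250 bases before the transcription start are printed from the RefSeq sequence table of the rat assembly GRCr8, from 5′ to 3′ on the strand of the gene, and lie at chr17:82157475-82157724 on the plus strand for Mrc1 and at chr10:54882442-54882691 on the minus strand for Cd68. Capitals mark GAGGAA or its reverse complement TTCCTC, the core that the myeloid factor PU.1 binds.
Mrc1: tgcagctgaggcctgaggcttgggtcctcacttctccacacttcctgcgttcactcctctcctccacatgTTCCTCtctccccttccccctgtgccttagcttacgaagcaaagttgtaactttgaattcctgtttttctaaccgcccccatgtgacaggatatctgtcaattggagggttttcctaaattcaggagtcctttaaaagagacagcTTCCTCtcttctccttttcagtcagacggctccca
Cd68: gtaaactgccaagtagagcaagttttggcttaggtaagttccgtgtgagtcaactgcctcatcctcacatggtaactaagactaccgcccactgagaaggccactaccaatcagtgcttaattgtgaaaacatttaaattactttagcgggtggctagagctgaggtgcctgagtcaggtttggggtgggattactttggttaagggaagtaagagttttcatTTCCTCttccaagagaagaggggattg
The Mrc1 window of 300 bases, which runs 50 bases past the start, held this motif at positions 71 and 216 counted from its 5′ end, and the Cd68 window held it at 224 and 255, the second of which lies after the start and is not printed. The table held 9 promoters of 8 of the 10 genes, with 2 for Pparg and none for Msr1 and Siglec1. The motif was found on either strand in 7 of these 9 promoters, all but that of Cd163 and 1 of the pair of Pparg, and in 27.6% of all 33469 promoters of the same length. The AP-1 motif TGANTCA was found in 2 of the 9 promoters, against 7.33% of all promoters, and the Cd68 promoter held it at positions 46 and 171, apart from GAGGAA. The C/EBP motif TTGCNNAA was found in 2 of 9, against 10.6%, and TATAAA in 2 of 9, against 14.2%. A match is a run of letters and was not measured as a bound site.

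The first question was whether any macrophage gene changed with hexanal. A gene was called at a change of at least 1.5-fold with an unadjusted limma p-value under 0.05, the threshold of the study. None of the 9 genes was called at any dose. Of all genes tested, 0.16% were called higher and 0.456% lower at 600 ppm. The shares were 1.29% and 0.343% at 1000 ppm and 0.701% and 0.522% at 1500 ppm. At a Benjamini-Hochberg adjusted limma p-value under 0.05 none of the 9 passed either, where 0% of all genes passed at 600 ppm, 0.0188% at 1000 ppm and 0.00471% at 1500 ppm. None of the 9 had even an unadjusted limma p-value under 0.05, while 924, 1908 and 1479 of the 21253 genes tested did at the 3 doses.

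At 600 ppm, 7 of the 9 genes had a higher mean than in the control group and 2 a lower one, and the median change was 0.11 (range -0.27 to 0.23). At 1000 ppm, 2 had a higher mean and 7 a lower one, and the median was -0.08 (range -0.20 to 0.20). At 1500 ppm, the mean was higher for 1 gene and lower for 8, and the median was -0.19 (range -0.40 to 0.05). The median over all genes was 0.00 at 1000 ppm and 0.01 at 1500 ppm, and 50.4%, 48.8% and 46.2% of all genes were lower at 600, 1000 and 1500 ppm. The 3 comparisons share the 6 control rats, so their values are not independent of each other. The standard errors of the changes lay between 0.10 and 0.23, and the 95% intervals of all 27 changes held 0. The intervals lay inside 1.5-fold in either direction for 5 genes at 600 ppm, for 7 at 1000 ppm and for 5 at 1500 ppm. The intervals of Msr1 and Cd163 reached past 1.5-fold at every dose, so changes of that size lie within them.

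**Figure D1:**
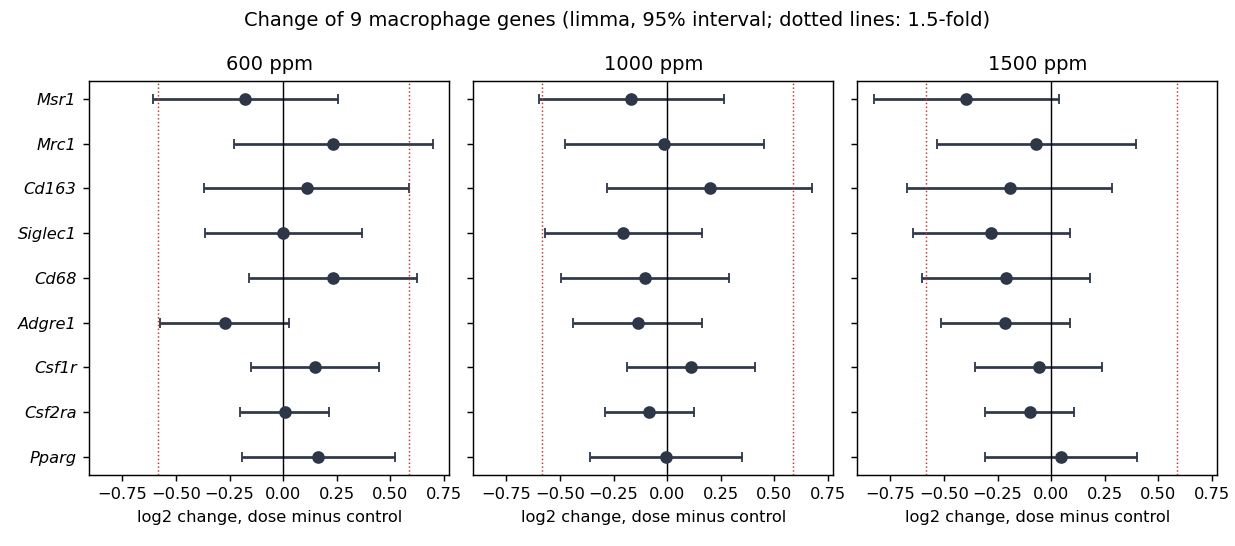
The change of each of 9 macrophage genes at 600, 1000 and 1500 ppm is plotted on the log2 scale (dose minus control, 6 rats against 6) with its 95% interval from limma, and dotted lines mark 1.5-fold. Every interval crosses 0, and the points lie mostly right of 0 at 600 ppm (7 of 9) and mostly left of it at 1500 ppm (8 of 9).

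Of the scavenger receptors, Msr1 (class A scavenger receptor, which binds modified lipoproteins and bacterial surfaces) had the largest change. Its level was -2.92 at the lowest, -2.52 at the median and -1.51 at the highest in the control group, and -3.53, -2.64 and -2.52 at 1500 ppm. All 6 rats at 1500 ppm lay below the control median, but 1 alone lay below every control rat, so the groups overlapped. The change of Msr1 at 1500 ppm was -0.40 (SE 0.21, 95% interval -0.83 to 0.04, limma adjusted p = 0.744). In the exact permutation test of 6 rats against 6, two-sided as in all such tests here, p was 0.147, where the smallest value the design allows is 0.00216. Control rat 21, a female, held the highest Msr1 level of the control group, and without that rat the change at 1500 ppm was -0.22. At 600 and 1000 ppm the changes of Msr1 were -0.18 and -0.17 (SE 0.21 for both).

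Mrc1 (the mannose receptor CD206, which takes up glycoproteins) had levels of -2.51, -2.05 and -1.82 in the control group at the lowest, median and highest rat. At 600 ppm its levels were -2.20, -1.87 and -1.52, and 3 of 6 rats lay above every control rat. The change was 0.23 (SE 0.22, limma adjusted p = 0.997, exact permutation p = 0.139). At 1500 ppm the Mrc1 levels spread from -3.00 to -1.72 around a median of -2.02, and 3 rats lay above every control rat while 2 lay below every one. The mean was therefore close to that of the control group, with a change of -0.07 (SE 0.22, 95% interval -0.53 to 0.40), and the rats above and below were split by sex, as given below. The change at 1000 ppm was -0.01 (SE 0.22).

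Cd163 (the receptor that takes up haptoglobin-bound hemoglobin) had levels of -2.83, -2.01 and -1.39 in the control group. Its levels were -2.21, -1.95 and -1.35 at 600 ppm and -2.27, -1.80 and -1.01 at 1000 ppm. The 1500 ppm group had levels of -2.61, -2.17 and -1.72. All 3 dose groups overlapped the control group, and no rat lay below every control rat. The changes of Cd163 were 0.11, 0.20 and -0.19 in order of dose (SE 0.23 for each, limma adjusted p = 0.997, 0.828 and 0.899). Of 6 erythroid genes, 2 were called lower at 1500 ppm: Alas2 (the erythroid enzyme of heme synthesis) at -0.81 (limma adjusted p = 0.715, exact permutation p = 0.0801) and the globin gene Hbb-bs at -0.61 (0.674 and 0.0584). Of all genes, 0.522% were called lower at that dose. The brightest of the erythroid list did not pass, Hba-a1 at -0.07 (SE 0.13) and Hbb at -0.18 (SE 0.16). The part of blood content in the Cd163 values was not tested.

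Siglec1 (sialoadhesin, a sialic acid-binding lectin) was measured by a probe printed in 10 spots on each array. Its levels were -2.73, -2.18 and -1.66 in the control group and -2.87, -2.47 and -1.95 at 1500 ppm. The groups overlapped, with 2 rats at 1500 ppm below every control rat. The change was -0.28 (SE 0.18, 95% interval -0.65 to 0.09, limma adjusted p = 0.795, exact permutation p = 0.169). The change was 0.00 at 600 ppm and -0.20 at 1000 ppm (SE 0.18 for both). Marco (a class A scavenger receptor typical of alveolar macrophages) was not well above background on 23 of the 24 arrays, the exception being 1 rat at 1500 ppm, and its median processed signal was 12.9. No change is therefore given for Marco.

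Cd68 (a lysosomal glycoprotein used as a general marker of macrophages) had levels of 1.24, 1.67 and 2.11 in the control group. They were 1.62, 1.93 and 2.19 at 600 ppm and 1.01, 1.54 and 2.21 at 1000 ppm. The 1500 ppm group had levels of 0.95, 1.49 and 1.82. The ranges of all groups overlapped, and 2 rats at 1000 ppm and 2 at 1500 ppm lay below every control rat. The changes of Cd68 were 0.23, -0.10 and -0.21 in order of dose (SE 0.19 for each). At 1500 ppm the 95% interval ran from -0.60 to 0.18 (limma adjusted p = 0.852, exact permutation p = 0.286).

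Adgre1 (F4/80, an adhesion receptor of the macrophage surface) was lower on average at every dose. Its levels were -2.83, -2.52 and -2.23 in the control group and -3.10, -2.94 and -2.44 at 600 ppm. In the 600 ppm group 4 of 6 rats lay below every control rat. The change was -0.27 (SE 0.14, 95% interval -0.57 to 0.03, limma adjusted p = 0.997, exact permutation p = 0.0909). At 1500 ppm the rats lay close together, between -2.90 and -2.62 (median -2.78), and 3 lay below every control rat. The change there was -0.21 (SE 0.14, limma adjusted p = 0.809, exact permutation p = 0.0584). At 1000 ppm the change was -0.14 (SE 0.14).

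**Figure D2:**
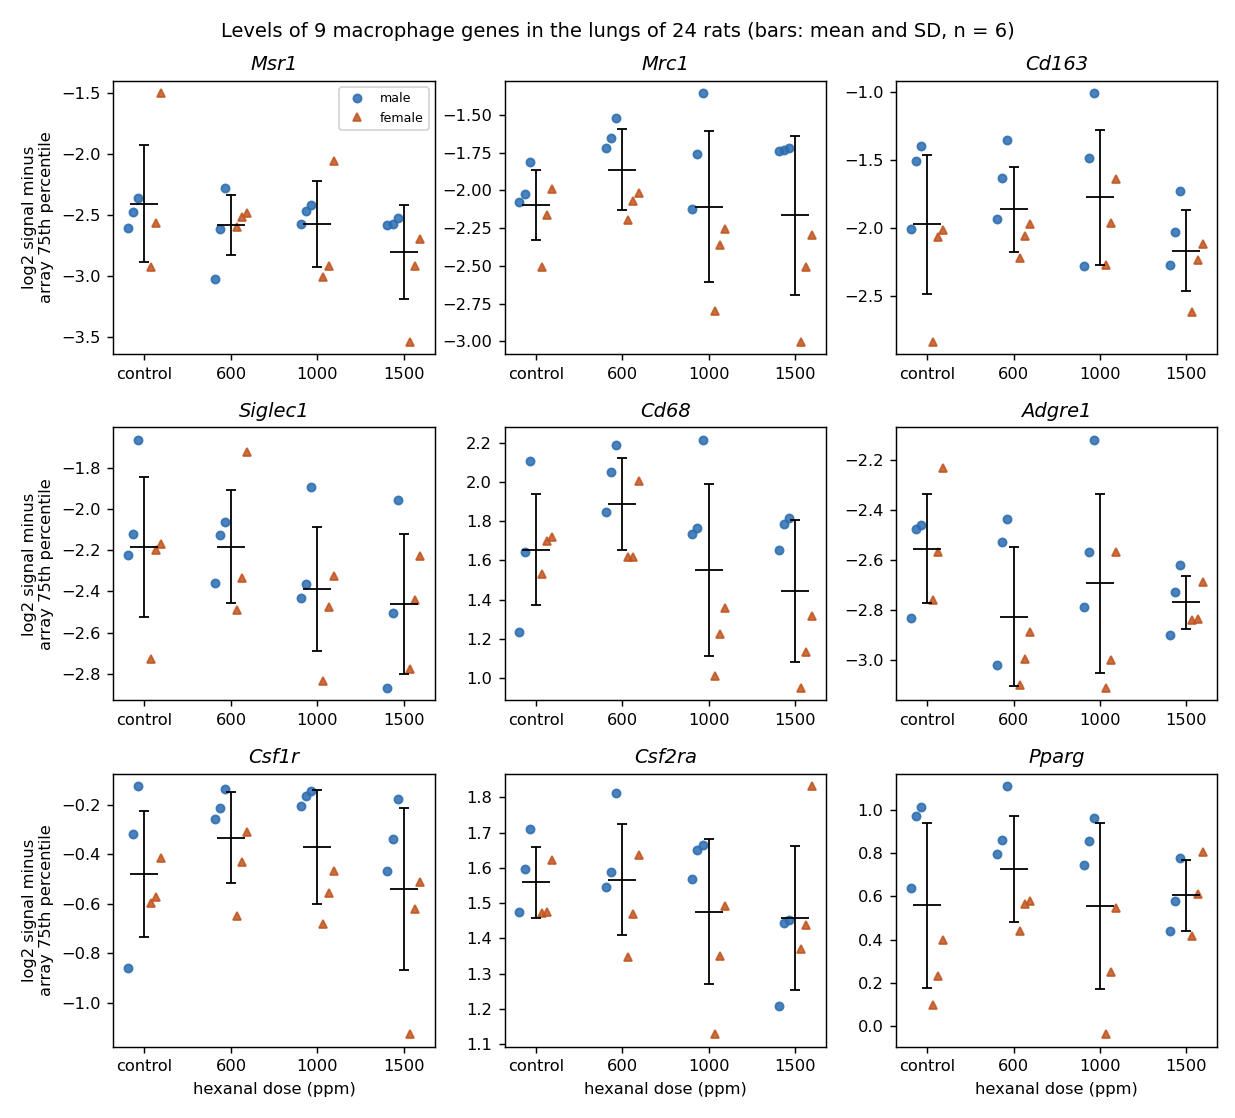
The level of each of 9 macrophage genes (log2 signal minus the 75th percentile of the array) is plotted for every rat by dose, with circles for males and triangles for females, and bars for the mean and SD of 6 rats. The control group and every dose group overlap in all 9 panels, and the axis of each panel has its own range.

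Csf1r (the receptor tyrosine kinase for M-CSF and IL-34) had levels of -0.86, -0.49 and -0.13 in the control group. Its levels were -0.65, -0.28 and -0.14 at 600 ppm and -0.68, -0.34 and -0.14 at 1000 ppm. The 1500 ppm group had levels of -1.13, -0.49 and -0.18. All groups overlapped, and the changes of Csf1r were 0.15, 0.11 and -0.06 in order of dose (SE 0.14 for each). Its other probe, which was dimmer, gave -0.17, -0.08 and -0.02 (SE 0.11), so that the probes differed in sign at 600 and 1000 ppm.

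Csf2ra (the ligand-binding chain of the GM-CSF receptor) had the narrowest control range of the 9 genes, with levels of 1.47, 1.54 and 1.71. At 1500 ppm its levels were 1.21, 1.37, 1.44, 1.44, 1.45 and 1.83. In that group 5 of the 6 rats lay below every control rat, and rat 36, a female, lay above every one. The change was -0.10 (SE 0.10, 95% interval -0.31 to 0.11, limma adjusted p = 0.874, exact permutation p = 0.288). Without rat 36 it was -0.18. Rat 36 also had one of the highest levels of adipocyte genes, given below. Rat 37, higher still in those genes, had a Csf2ra level of 1.37, below every control rat. Rat 13 at 1000 ppm, also high in them, had 1.57, inside the control range. At 600 ppm the Csf2ra change was 0.01 and at 1000 ppm -0.08 (SE 0.10 for both).

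Pparg (the lipid-sensing nuclear receptor that alveolar macrophages and adipocytes both need) had levels of 0.10, 0.52 and 1.01 in the control group and of 0.42, 0.59 and 0.80 at 1500 ppm. The 1500 ppm group lay wholly inside the control range. The changes of Pparg were 0.16, -0.01 and 0.05 in order of dose (SE 0.17 for each, limma adjusted p = 0.997, 0.994 and 0.973). The 95% interval at 1500 ppm ran from -0.31 to 0.40.

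A trend over dose was tested as a slope across all 24 rats. None of the 9 genes had a slope at an adjusted limma p-value under 0.05, which 0.0141% of all genes had. The steepest slopes were those of Msr1, -0.24 log2 units per 1000 ppm (SE 0.13, limma adjusted p = 0.617), and Siglec1, -0.21 (SE 0.11, limma adjusted p = 0.621).

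The genes around these receptors were read in 7 lists, of which the counts, medians, calls and brightest genes are given as a description. The lists overlap, so their counts are not separate readouts. Fabp4, Cd36, Lpl, Plin2 and Abcg1, for example, stand both among the alveolar macrophage genes and among those that PPARG activates. Of 19 alveolar macrophage genes that passed the filter, 12, 8 and 8 were higher at 600, 1000 and 1500 ppm, with medians of 0.03, -0.05 and -0.02, and none was called. The brightest were Ctsd (cathepsin D, a lysosomal protease), with changes of 0.06, -0.18 and -0.23 in order of dose (SE 0.13), and Lgals3 (galectin-3), with 0.23, 0.09 and -0.02 (SE 0.10). Of 15 interstitial macrophage genes, 9, 10 and 7 were higher at the 3 doses, with medians of 0.03, 0.04 and -0.06, and none was called. Their brightest were Apoe (apolipoprotein E), with 0.16, 0.08 and 0.19 (SE 0.11), and Selenop (selenoprotein P), with -0.18, -0.17 and -0.33 (SE 0.10). Of 10 monocyte genes, 5, 6 and 6 were higher, with medians of -0.06, 0.05 and 0.06, and none was called. Plac8 and Cd14, the brightest, had changes of 0.11 and -0.06 at 1500 ppm (SE 0.15 and 0.17).

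Other scavenger and phagocytic receptors were mostly lower at the higher doses. Of 15 such genes, 7, 13 and 13 were lower in order of dose, with medians of 0.00, -0.15 and -0.12, and none was called. The brightest were Itgb2 (the beta chain of the leukocyte integrins), with -0.06, -0.18 and -0.09 (SE 0.11), and Scarb1 (the receptor for high-density lipoprotein), with -0.08, -0.05 and -0.16 (SE 0.13). Of 13 macrophage activation genes that passed, 6, 7 and 5 were higher, with medians near 0 and none called. Among these Tgm2 (transglutaminase 2) had -0.04, -0.05 and -0.14 (SE 0.12) and Il1b (the cytokine interleukin-1 beta) 0.09, 0.21 and -0.02 (SE 0.25).

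Genes that PPARG activates were read beside Pparg itself. Of 11 such genes, 10, 4 and 4 were higher in order of dose, with medians of 0.09, -0.08 and -0.02 and none called. The brightest, Cd36 (a fatty acid and lipoprotein receptor) and Abcg1 (a cholesterol exporter), changed by 0.08 and 0.03 at 600 ppm (SE 0.10 and 0.13).

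Of 17 genes of the colony-stimulating factor pathway and of macrophage identity, 9, 14 and 10 were lower at the 3 doses, with medians of -0.02, -0.05 and -0.04, and 1 was called, Klf4 at 1500 ppm. KLF4 is a zinc finger transcription factor of monocytes and macrophages that is also made in endothelium and epithelium. Its levels were 2.32, 2.73 and 3.23 in the control group at the lowest, median and highest rat. They were 2.12, 2.56 and 2.96 at 600 ppm and 1.96, 2.34 and 2.62 at 1000 ppm. The 1500 ppm group had levels of 1.62, 2.10 and 2.22. All 6 rats at 1500 ppm lay below every control rat, while the 600 and 1000 ppm groups overlapped the control group. The share of all genes so separated was not computed, and 0.522% of all genes were called lower at 1500 ppm. Klf4 fell by 0.71 on the log2 scale at 1500 ppm, or 1.64-fold (SE 0.16, 95% interval -1.03 to -0.39). The limma adjusted p-value was 0.157, and the exact permutation p of 0.00216 was the smallest that 6 rats against 6 can give. Klf4 is described because it was called among the listed genes, and the exact p-value is not corrected for that choice. With sex as a covariate the limma adjusted p-value was 0.0340, and a fit that included the slide gave -1.21 with an adjusted p-value of 0.983. At 1000 ppm the change of Klf4 was -0.45 (SE 0.16, limma adjusted p = 0.515, exact permutation p = 0.0238). The brightest genes of this list were Tyrobp (an adaptor of activating receptors), with -0.10 at 1500 ppm (SE 0.12), and Cebpb (a transcription factor of myeloid cells and the liver), with -0.35 (SE 0.16, limma adjusted p = 0.690).

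**Figure D3:**
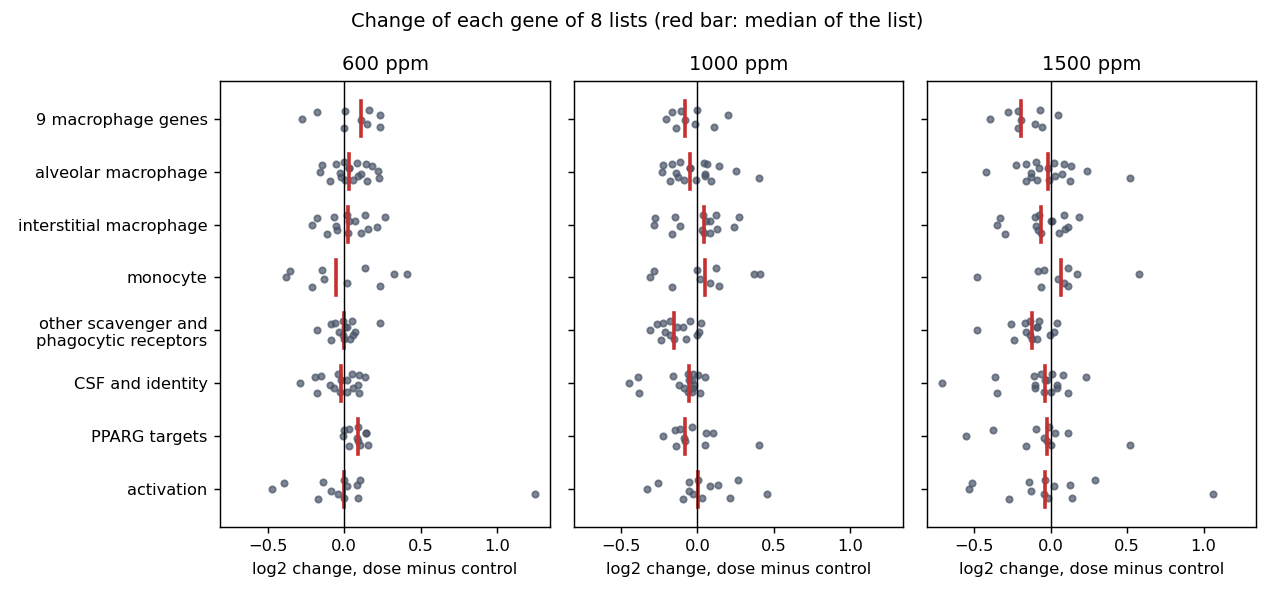
Each point is the change of 1 gene on the log2 scale (dose minus control) at 600, 1000 or 1500 ppm, by list, and a red bar marks the median of the list. The medians lie near 0 in most lists, the other scavenger and phagocytic receptors have medians of -0.15 and -0.12 at 1000 and 1500 ppm, and the single gene called, Klf4, is the lowest point of the CSF and identity list at 1500 ppm.

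Markers of other tissues varied widely between rats. The mean level of 7 adipocyte genes lay between -3.62 and -3.08 in the control group, and reached -0.50 in rat 13 at 1000 ppm and -0.81 and -0.52 in rats 36 and 37 at 1500 ppm. All 7 adipocyte genes were higher at 1000 and at 1500 ppm (median changes 0.40 and 0.65). Of these, Adipoq and Retn were called at 1000 ppm, with changes of 2.66 and 1.66 (SE 1.25 and 0.74, limma adjusted p = 0.547 and 0.528). Retn and Cfd were called at 1500 ppm, with 1.95 and 0.65 (SE 0.74 and 0.31, limma adjusted p = 0.609 and 0.715). Of all genes, 1.29% were called higher at 1000 ppm and 0.701% at 1500 ppm. Without the 3 rats the change of Pparg was -0.07 at 1000 ppm and 0.09 at 1500 ppm, and none of the 9 macrophage genes was called at any dose. All 7 heart muscle genes were higher at each dose (medians 1.06, 2.48 and 0.64). Of these, Tnnt2, Tnni3, Actc1 and Sln were called at 1000 ppm (limma adjusted p = 0.548, 0.517, 0.515 and 0.515). The mean level of the 7 heart muscle genes ran from -3.55 to 1.66 within the control group. Of 6 neutrophil genes, S100a8 was called at 1000 ppm (0.71, SE 0.34), and all 6 erythroid genes had a lower mean at 1500 ppm (median -0.40). Of 6 B and T cell genes all were lower at 600 ppm (median -0.34) and none was called, and no dendritic cell, type II cell or lymphatic endothelial gene was called at any dose. The part of these tissues in the macrophage values was not tested.

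Males and females were compared next, first within the control group. Pparg was higher in control males, with levels of 0.64, 0.97 and 1.01, than in control females, with 0.10, 0.23 and 0.40, and the sexes did not overlap. The difference was 0.63 (SE 0.15, 95% interval 0.32 to 0.94), and its limma adjusted p-value over all genes was 0.0167. It was the only one of the 9 genes past an adjusted p-value of 0.05, which 6.35% of all genes passed. Without control rat 3, a male, the difference was 0.56 with an adjusted p-value of 0.0864, and without control rat 22, a female, it was 0.56 with 0.0719. Cd163 was also higher in control males, by 0.67 (SE 0.28, limma adjusted p = 0.158). Control males lay on 1 slide and control females on another, so that the effect of sex here cannot be told apart from that of the slide.

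The sexes also lay apart in the dose groups. Every male lay above every female for 2 of the 9 genes in the control group (Cd163 and Pparg), where 11% of all genes did so. The count was 4 at 600 ppm (Mrc1, Cd163, Csf1r and Pparg), against 7.63% of all genes, 5 at 1000 ppm (Mrc1, Cd68, Csf1r, Csf2ra and Pparg), against 8.37%, and 4 at 1500 ppm (Msr1, Mrc1, Cd68 and Csf1r), against 16.6%. For none of the 9 genes did every male lie below every female in any group, while 18.7%, 16%, 11.6% and 16.8% of all genes were so placed in the control, 600, 1000 and 1500 ppm groups. Mrc1 and Csf1r were thus separated by sex in all 3 dose groups and not in the control group, and Pparg in every group but 1500 ppm. These patterns over the groups were seen after the fact, and the share of all genes with them was not computed. Each slide held 1 sex, so this separation cannot be told apart from the slides.

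Whether the change with dose differed between males and females was tested over 8 groups of 3 rats. None of the 9 genes passed an adjusted limma p-value of 0.05 at 600, 1000 or 1500 ppm, where the share of all genes was 0% at 600 ppm, 0% at 1000 ppm and 5.01% at 1500 ppm. Without adjustment, 0, 1 and 3 of the 9 genes had a limma p-value under 0.05 in that fit, where 1061, 2003 and 4282 of the 21253 genes tested did. A p-value of this size at 1500 ppm was thus frequent among all genes and is not particular to these 9. The smallest p-value was that of Pparg at 1500 ppm. Its levels at 1500 ppm were 0.44, 0.58 and 0.78 in males and 0.42, 0.61 and 0.80 in females. Males at 1500 ppm thus overlapped control males and all 3 females lay above every control female, so that the sexes, apart in the control group, lay together at the highest dose. The change was -0.28 in males and 0.37 in females, a difference of -0.64 (SE 0.21, 95% interval -1.07 to -0.21, limma adjusted p = 0.0781). After normexp background correction the difference was -0.79 with a limma adjusted p-value of 0.0476. A fit that included the slide gave -0.89 with a limma adjusted p-value of 0.379. Each slide held 1 sex, and none held control rats with 1000 or 1500 ppm rats. Differences between the sexes in the change at these doses therefore cannot be told apart from the slides.

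Mrc1 and Cd68 went the other way, with females lower at the higher doses. Mrc1 at 1500 ppm lay between -1.74 and -1.72 in the 3 males and between -3.00 and -2.29 in the 3 females. The change was 0.24 in males and -0.38 in females, a difference of 0.62 (SE 0.27, 95% interval 0.06 to 1.19, limma adjusted p = 0.201). Cd68 at 1500 ppm lay between 1.65 and 1.82 in males and between 0.95 and 1.32 in females, and in the control group the sexes had nearly the same mean, 1.66 and 1.65. The change of Cd68 was 0.09 in males and -0.52 in females, a difference of 0.61 (SE 0.26, 95% interval 0.06 to 1.15, limma adjusted p = 0.191). At 1000 ppm the difference for Cd68 was 0.69 (SE 0.26, limma adjusted p = 0.429). These differences did not pass the adjusted threshold. At 1000 and 1500 ppm the females lowest in Cd68 were also those high in heart muscle genes, which was not so at 600 ppm. The mean level of the heart muscle genes was 2.64 and 3.62 in rats 31 and 33 at 1000 ppm and 2.73 and 3.59 in rats 36 and 37 at 1500 ppm, against -0.92 in rat 32 and -3.34 in rat 38, the females highest in Cd68 at each dose. It lay between 0.44 and 2.94 in males at 1000 ppm and between -3.38 and 0.89 at 1500 ppm. At 600 ppm it was 2.37 in rat 28, the female highest in Cd68 there (2.01). Rats 36 and 37 were also the females high in adipocyte genes. Without them and rat 13, which leaves 1 female at 1500 ppm that is assumed to vary like the other groups, the difference between the sexes there was 0.31 for Mrc1 (SE 0.26, limma adjusted p = 0.615), 0.42 for Cd68 (SE 0.32, limma adjusted p = 0.577) and -0.84 for Pparg (SE 0.26, limma adjusted p = 0.105). The part of the other tissues in these differences was not tested.

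**Figure D4:**
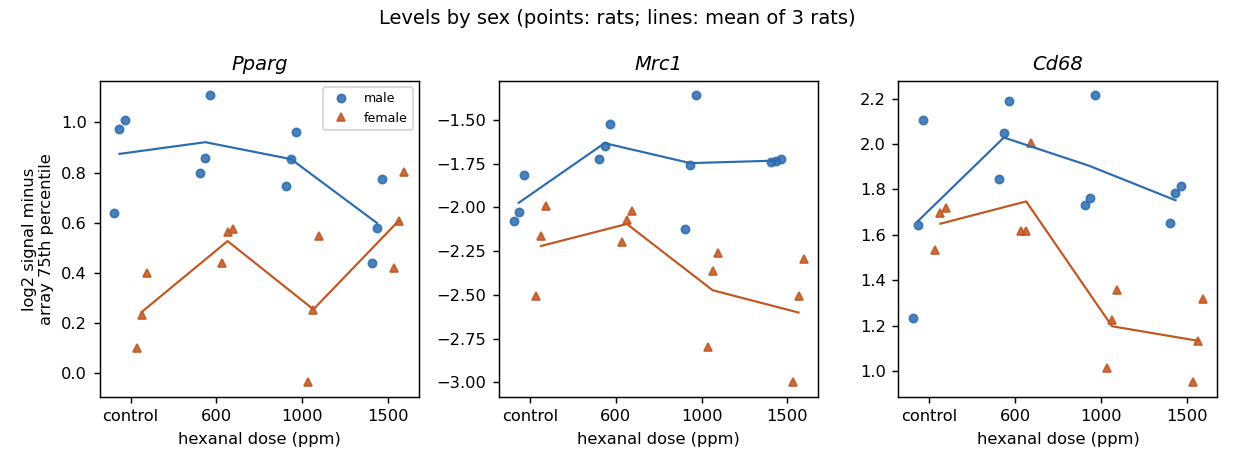
Levels of Pparg, Mrc1 and Cd68 (log2 signal minus the 75th percentile of the array) are plotted for every rat by dose, with circles for males and triangles for females, and lines joining the means of 3 rats. The sexes lie apart for Pparg in the control group and together at 1500 ppm, while for Mrc1 and Cd68 the females lie below the males at 1000 and 1500 ppm.

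How far the 9 genes varied together was measured over the 24 rats after the mean of each group was subtracted. Of the 36 pairs, 32 had a positive Pearson correlation, with a median r of 0.37 (range -0.27 to 0.82). In a permutation test within groups, 5 pairs had a Benjamini-Hochberg adjusted p-value under 0.05 over the 36 pairs by Pearson's r, all of them with Mrc1 or Cd68, and 8 pairs by Spearman's rho. The 3 pairs found by rho alone were Msr1 with Cd68 (rho = 0.57), Csf1r with Pparg (0.57) and Adgre1 with Csf1r (0.56), each with an adjusted permutation p of 0.0414. Mrc1 and Cd68 had r = 0.82 and Spearman's rho = 0.82 (n = 24, permutation p = 6e-05 and 0.00012, adjusted p = 0.00072 and 0.00144), and r was 0.80 without the 2 rats farthest from the median of Mrc1. Cd68 and Csf1r had r = 0.80 and rho = 0.86 (n = 24, permutation p = 2e-05 for both, adjusted p = 0.00054 and 0.00036), and r was 0.79 without 2 rats. Mrc1 and Csf1r had r = 0.79 and rho = 0.82 (n = 24, permutation p = 3e-05 and 1e-05, adjusted p = 0.00054 and 0.00036), and r was 0.72 without 2 rats; 1e-05 is the smallest p-value that 100000 permutations can give. Mrc1 also varied with Pparg (r = 0.63, rho = 0.59, permutation p = 0.00053 and 0.00258, 0.60 without 2 rats) and with Cd163 (r = 0.59, rho = 0.61, permutation p = 0.00255 and 0.0022, 0.55 without 2 rats). After normexp background correction 5 pairs passed as well, but r was 0.63 for Mrc1 with Cd68 (adjusted permutation p = 0.0307) and 0.42 for Mrc1 with Pparg (adjusted permutation p = 0.141), which no longer passed, and Mrc1 with Adgre1 passed in its place (r = 0.63).

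These correlations held the difference between the sexes as well. After the mean of each sex in each group was subtracted, the r of Mrc1 with Cd68 was 0.54, that of Cd68 with Csf1r 0.59 and that of Mrc1 with Csf1r 0.54, and 0 of the 36 pairs had an adjusted p-value under 0.05 (highest r 0.60, for Mrc1 with Pparg). Rats of a slide share its sex and its hybridisation. Some other genes varied at least as closely with these as they did with each other. Of 11298 genes searched, 0.708% had an r with Mrc1 at least as high as that of Cd68, and 1.19% at least as high as that of Csf1r, while the median r of all genes with Mrc1 was 0.00. With Cd68 the shares were 0.257% for Mrc1 and 0.372% for Csf1r. With Csf1r they were 1.27% for Mrc1 and 1.05% for Cd68.

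**Figure D5:**
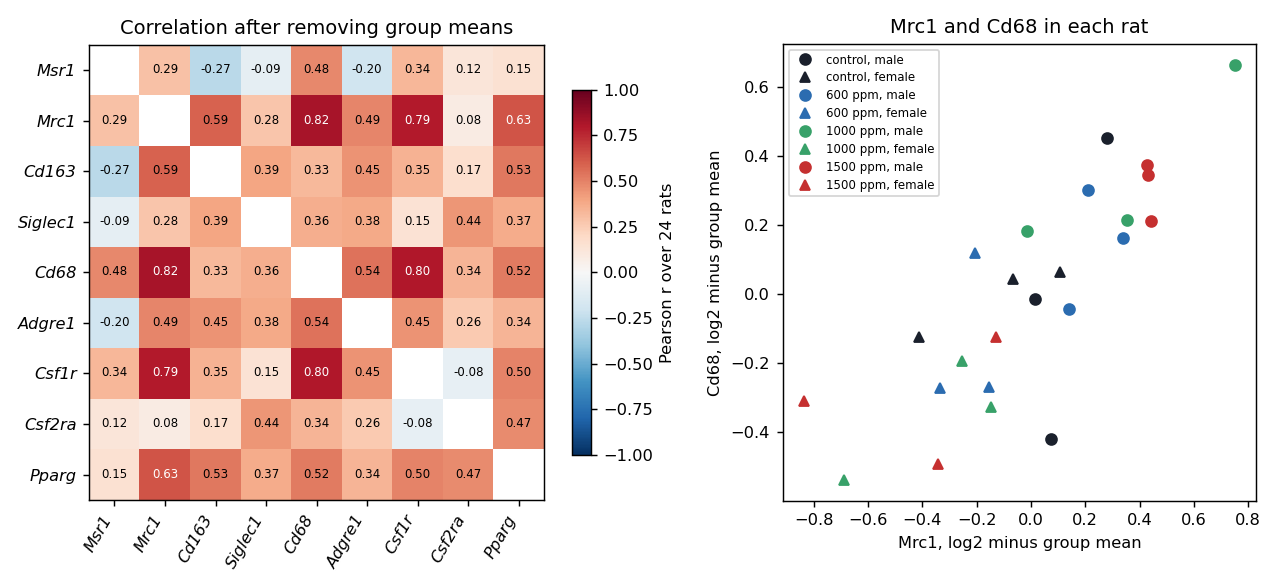
The left panel gives Pearson's r for each pair of 9 macrophage genes over 24 rats after group means were subtracted, and the right panel gives Mrc1 against Cd68 in each rat on that scale (log2 minus the group mean), with circles for males and triangles for females. Red squares join Mrc1, Cd68 and Csf1r (r from 0.79 to 0.82), and most males lie right of and above most females.

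The same rats held the extremes of many genes. At 1000 ppm, rat 12, a male, was the highest of its group for 7 of the 9 genes and rat 31, a female, the lowest for 6. Their mean levels over the 9 genes were -0.51 and -1.36, which were the highest and the lowest of that group. In the control group rat 3, a male, was the highest for 6 of the 9 genes. At 600 ppm rat 26, a female, was the lowest for 5 genes and rat 8, a male, the highest for 5. At 1500 ppm rat 36 was the lowest for 4 genes and the highest for Csf2ra. The mean level of the 9 genes had a median of -0.91 in the control group (range -1.04 to -0.57), -0.84 at 600 ppm (-1.01 to -0.58), -0.96 at 1000 ppm (-1.36 to -0.51) and -1.03 at 1500 ppm (-1.24 to -0.82), and all groups overlapped.

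For each gene the 2 genes with the closest pattern over the 24 rats, after group means were subtracted, were read from 11298 named genes well above background on every array. For Mrc1 they were Fermt2 (r = 0.94) and Dram2 (0.92), for Cd68 Slc39a2 (0.93) and Naaa (0.92), and for Csf1r Ctsz (0.92) and Myl12b (0.92). For Pparg they were Bcl2l1 (0.89) and Plaur (0.88), and for Csf2ra Clec12a (0.85) and Armc5 (0.78). For Adgre1 they were Zfand2a (0.79) and Abcg3l3 (0.74), for Cd163 Iars1 (0.77) and Slc10a6 (0.77), for Siglec1 Ly6e (0.74) and Lgals5 (0.71), and for Msr1 Hmgcs1 (0.70) and Tbcc (0.70). None of these was itself 1 of the 9 genes. The values are descriptions over the same rats, arrays and slides, with no test.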

How the data were processed

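Lung RNA of 24 rats was measured with Agilent Rat GE v3 4x44K arrays in 1 colour. The authors' deposited intensities are processed signals of Feature Extraction 11.5.1.1, which subtracts and detrends the background; arrays were not scaled to each other. The log2 values of the authors' deposited matrix match them on every array for 97.4% of probes or more (tolerance 0.001 log2) and served as an alternative. Control and flagged spots were removed, log2 spots of 1 probe were averaged, and the array's 75th percentile was subtracted. A probe was kept when 5 of the 6 arrays of any group, or all 6, were well above background, and a gene was read from its brightest probe. Of 30367 probes, 18355 were named by accession through a GRCr8 gene table, used for names and, for promoters, sequence. The members and gene lists were chosen with earlier results of these data known.

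Each dose was compared with control by limma 3.58.1 in R 4.3.3 on all 24 arrays, with Benjamini-Hochberg adjustment over 21253 genes, and by an exact permutation test of 6 rats against 6. Sex differences were tested over 8 groups. Genes named are the members, the list genes called or brightest, and the 2 nearest genes of each member. Alternatives were normexp (offset 50), quantile and median scaling, the authors' matrix, no filter, a filter on 24 arrays, single doses, a sex covariate, a slide block, each probe, the methods' t-test on the same values and leaving out each rat. The comparison of control sexes, the fits without rats high in adipocyte genes and the alternatives for Klf4 were added after seeing the data. The fit was checked on simulated data. The number of arrays limits the precision.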

Additional observations from a re-analysis of the deposited data

How the results depend on the processing

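No macrophage gene was called at any dose under any of the alternatives, except that without the filter on dim probes 1 was called at 1000 ppm (Marco, lower, at signals not well above background there). The cause of other differences was not tested. Of 282 recomputed changes of these genes and Klf4 under other settings, 15 turned their direction, and none of these had been called. A change is a difference of group means. The other filters, single doses, the t-test and, with the sexes balanced in every group, the sex covariate cannot alter it. Klf4 at 1500 ppm, for example, stayed at -0.71 with sex as a covariate. Part of the 282 changes could therefore not turn, and their count is no rate of stability. The other probe of Csf1r gave -0.17 at 600 ppm and -0.0841 at 1000 ppm. With normexp background correction Siglec1 changed by -0.11 at 600 ppm and Pparg by -0.0404 at 1500 ppm, and with quantile normalization Csf2ra changed by -0.00498 at 600 ppm. In the authors' table without scaling Mrc1 changed by 0.0912, Pparg by 0.0992 and Csf2ra by 0.0217 at 1000 ppm, and Pparg by -0.0201 at 1500 ppm. With the slide as a block, which reaches the 1000 and 1500 ppm groups through slides shared between neighbouring doses alone, Siglec1 changed by 0.0034, Csf1r by -0.0865 and Csf2ra by 0.0175 at 1000 ppm, and Cd163 by 0.19, Pparg by -0.0209 and Csf2ra by 0.13 at 1500 ppm. Within the slides that held control and 600 ppm rats, 1 rat against 3, the change of Adgre1 was 0.15 in males and -0.58 in females and that of Siglec1 -0.36 and 0.64. With 1 rat left out at a time, 31 of 660 changes turned. Leaving out a rat from neither the dose group nor the control group cannot alter a change. Many of the 660 changes could therefore not turn, and the count is no rate of stability. At 600 ppm these runs put Msr1 between -0.28 and 0.00292, Cd163 between -0.0622 and 0.23, Siglec1 between -0.11 and 0.10, Csf2ra between -0.0412 and 0.0518. At 1000 ppm they put Msr1 between -0.27 and 0.0131, Mrc1 between -0.16 and 0.12, Cd68 between -0.24 and 0.00281, Pparg between -0.0971 and 0.11. At 1500 ppm they put Mrc1 between -0.16 and 0.0972, Csf1r between -0.13 and 0.0588, Pparg between -0.0466 and 0.14. The number of genes with a sex difference at 1500 ppm was 1 with normexp (Pparg, -0.79) and 0 under the other settings run. The number that differed between control males and females was 0 to 1 with 1 control rat left out. After group-by-sex means were removed, 0 pairs of genes correlated at an adjusted p-value under 0.05, against 5, and with normexp 5 passed, with Mrc1 and Pparg lost and Mrc1 and Adgre1 gained. Klf4 at 1500 ppm kept its call by the study's threshold with normexp, quantile, median scaling, the authors' table, sex as a covariate and the slide as a block (adjusted p = 0.983 there), and with each control or 1500 ppm rat left out; no slide held both control and 1500 ppm rats. No paired analysis was possible because the rat numbers of the labels are not shared between groups. Signal over background limits Marco.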
